A study of Mus musculus with 2 samples.

Results

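The acute phase proteins are plasma proteins whose production by the liver changes with inflammation or injury. Of their genes, 10 were followed here in mouse liver after whole-body irradiation, namely Lcn2, Saa2, Saa3, Saa4, Orm1, Orm2, Orm3, Hp, Hpx and Apcs. They were taken by name, each through the only probe set annotated with that symbol alone, and make up 10 of 22180 genes on the array. A further probe set, annotated to both Saa1 and Saa2, is given apart. The irradiated sample was liver of male C57BL/6 mice, an inbred strain, aged 9 weeks, that had received a single gamma-ray dose of 6 Gy under anaesthesia at 4 weeks of age, at 0.81 Gy per minute, 5 weeks before sampling. The control sample was liver of untreated male C57BL/6 mice, also 9 weeks old. Each group held 1 Affymetrix array, and the labels do not say how many mice gave the RNA or whether control mice were anaesthetised.

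In an acute phase response, interleukin-6 acting through the receptor subunit gp130 and STAT3, together with interleukin-1 acting through NF-kB and C/EBP factors, drives hepatocytes to make these proteins. The products carry lipid or small ligands (serum amyloid A and the orosomucoids), withhold iron from microbes (lipocalin 2) or clear haemoglobin and heme (haptoglobin and hemopexin). In mice the strongly inducible members include serum amyloid A, apart from constitutive Saa4, and the pentraxin serum amyloid P, encoded by Apcs. C-reactive protein in mice is only weakly inducible.

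Values are log2 RMA values, the background-corrected and normalized array signal on a log2 scale, and differences are irradiated minus control. Since each group had a single array, no difference below has a replicate, a test or an error, and the spread between animals is unknown. In whole liver RNA, fewer cells of a type and less RNA per cell cannot be told apart. A gene was called expressed where its higher value reached 6.06, the median of all deposited values, which kept 13689 genes. The differences of expressed genes had a median of -0.00 and a central 95% between -0.37 and 0.42. All 15 hepatocyte markers were expressed, with Alb, the albumin gene, at 13.70 on the irradiated array and 13.68 on the control array, as fits the labelled tissue.

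All 10 acute phase genes were expressed. Of these, 8 read higher on the irradiated array, as did 48.5% of all expressed genes. The 10 differences ran from -0.83 to 1.08 with a median of 0.08. At least 1.5-fold higher were 2 of the 10, Lcn2 and Saa2, where 1.14% of all expressed genes were that much higher. At least 1.5-fold lower was 1 of the 10, Orm3, where 0.65% of all expressed genes were that much lower. The other 7 lay between -0.05 and 0.46. At 2-fold, 1 member was higher, Lcn2, against 0.321% of expressed genes, and 0 were lower, against 0.183%. At a log2 difference of 0.32, 3 members were higher, against 4.65%, and 1 was lower, against 3.75%. The 10 genes thus shared neither a size nor a direction of difference: Lcn2, Saa2 and Saa3 were higher, Orm2 was higher by less, Orm3 was lower, and Saa4, Orm1, Hp, Hpx and Apcs were close to level.

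**Figure D1:**
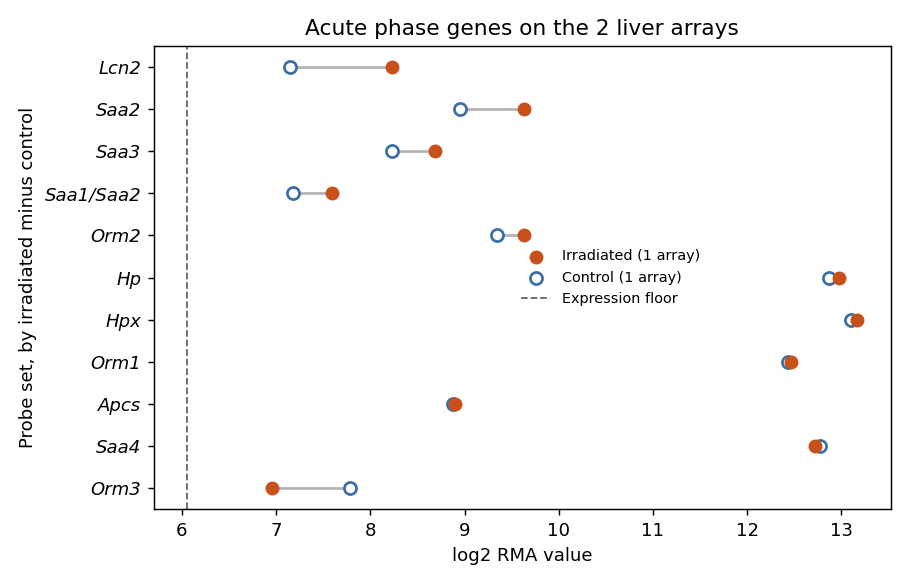
Log2 RMA values (horizontal axis) of the 10 acute phase genes and the probe set shared by Saa1 and Saa2, ordered by difference. Filled orange points are the irradiated array, open blue points the control array, with no error bars because each group held 1 array, and the dashed line is the expression floor at 6.06; Lcn2 has the widest gap to the right at 1.08, and Orm3 is the clear gap to the left at -0.83.

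Lcn2 encodes lipocalin 2, which binds bacterial siderophores and so keeps iron from microbes. Its signal was 8.23 on the irradiated array and 7.15 on the control array. The difference of 1.08 is a fold of 2.12, the largest of the 10 members. Counting Lcn2 itself, 35 expressed genes (0.256%) differed at least as far upward. Both values lay above the floor, by 2.17 on the irradiated array and 1.09 on the control array. Of the expressed genes next to Lcn2 on chromosome 2, Ciz1 differed by -0.04, 1110008P14Rik by 0.04, Ptges2 by -0.42 and Slc25a25 by 0.10, and each was much closer to 0 than Lcn2.

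The 250 bases before the Lcn2 start site are shown because Lcn2 had the largest difference. They lie in GRCm38.p6 at chr2:32387740-32387989 on the minus strand and come from RefSeq, like the other promoters given here. Capitals mark matches, on either strand, to 4 motifs. These were TTCNNNGAA for STAT factors, TTNNGNAA for C/EBP factors, TATAAA for the TATA box and GGRRNNYYCC for NF-kB. Here N is any base, R is A or G, and Y is C or T. No build is stated for the array itself.
Lcn2: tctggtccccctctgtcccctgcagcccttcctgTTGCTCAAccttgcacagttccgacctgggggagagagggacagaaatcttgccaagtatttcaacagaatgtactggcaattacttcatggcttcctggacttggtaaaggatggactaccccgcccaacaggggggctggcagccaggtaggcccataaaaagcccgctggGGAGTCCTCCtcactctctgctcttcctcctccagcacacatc
The Lcn2 window held a C/EBP match, TTGCTCAA, on the reverse strand, and an NF-kB match, GGAGTCCTCC, closer to the start site.

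The serum amyloid A genes differed by member. Saa2, an acute phase serum amyloid A that travels with high-density lipoprotein, read 9.64 on the irradiated array and 8.95 on the control array. This difference of 0.68 is a fold of 1.60, and 108 expressed genes (0.789%) were at least as far up. Saa3, which in mice is made by macrophages and adipocytes as well as by liver, read 8.69 on the irradiated array and 8.23 on the control array. Its difference of 0.46, 1.38-fold, fell short of 1.5-fold, and 276 expressed genes (2.02%) reached it.

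Saa4, the constitutive serum amyloid A, read 12.72 on the irradiated array and 12.77 on the control array, a difference of -0.05. The probe set shared by Saa1 and Saa2 read 7.60 on the irradiated array and 7.18 on the control array. It differed by 0.42, or 1.34-fold, in the same direction as the probe set of Saa2 alone and by less. The inducible genes Saa2 and Saa3 and the shared probe set were all higher on the irradiated array, and constitutive Saa4 was not. Saa4 had a mean above 12, a range where no expressed gene was 1.5-fold different. Inducibility and signal level therefore cannot be told apart in this contrast. Probes of the near-identical Saa1 and Saa2 can cross-hybridise, so the signal of Saa2 may include Saa1.

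The 4 Saa genes lie side by side on chromosome 7 in the order Saa3, Saa4, Saa1, Saa2. The nearest expressed genes outside the cluster were almost level. Saal1 differed by -0.03, Hps5 by -0.01 and Gtf2h1 by -0.03, and Sergef by 0.18. None of these neighbours, nor Saa4 within the cluster, read higher by as much as Saa2 or Saa3.

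Saa1 was read only through the probe set it shares with Saa2, so its own difference is not known here. The promoters of Saa1, Saa2 and Saa3 are shown because that shared probe set and those of Saa2 and Saa3 were higher. They lie in GRCm38.p6 at chr7:46742981-46743230 on the minus strand, chr7:46751583-46751832 on the plus strand and chr7:46715677-46715926 on the minus strand, in the order printed, with motif matches in capitals.
Saa1: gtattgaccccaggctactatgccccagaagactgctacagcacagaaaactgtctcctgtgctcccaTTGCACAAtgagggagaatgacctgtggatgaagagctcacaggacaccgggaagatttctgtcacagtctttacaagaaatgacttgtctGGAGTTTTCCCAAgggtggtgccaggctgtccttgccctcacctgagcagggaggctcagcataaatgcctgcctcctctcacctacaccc
Saa2: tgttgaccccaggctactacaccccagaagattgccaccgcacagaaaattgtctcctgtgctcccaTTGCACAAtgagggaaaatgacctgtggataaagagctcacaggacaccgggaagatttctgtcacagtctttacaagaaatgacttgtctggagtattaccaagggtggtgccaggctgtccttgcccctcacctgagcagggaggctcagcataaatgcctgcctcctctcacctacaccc
Saa3: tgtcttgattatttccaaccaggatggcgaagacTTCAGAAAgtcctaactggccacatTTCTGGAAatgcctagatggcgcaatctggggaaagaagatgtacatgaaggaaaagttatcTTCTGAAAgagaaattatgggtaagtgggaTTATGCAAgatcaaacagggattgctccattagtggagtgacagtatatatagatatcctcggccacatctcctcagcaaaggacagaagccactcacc
The Saa1 and Saa2 windows were identical at 238 of 251 aligned positions (94.8%), and those of Saa2 and Saa3 at 152 of 290 (52.4%). Saa1 and Saa2 shared the C/EBP match TTGCACAA. Saa1 also held an NF-kB match, GGAGTTTTCC, overlapping a second C/EBP match, and the Saa2 window held neither of these. Saa3 held 4 C/EBP matches, of which TTATGCAA is the nearest to the start site.

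The orosomucoid genes encode alpha-1-acid glycoproteins, plasma lipocalins that bind basic drugs and dampen inflammation. Their 3 differences had no common direction. Orm1 read 12.46 on the irradiated array and 12.43 on the control array, a difference of 0.03. Orm2 read 9.63 on the irradiated array and 9.34 on the control array. Its difference of 0.29, 1.22-fold, was reached by 806 expressed genes (5.89%).

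Orm3 was the member with the largest difference downward. It read 6.96 on the irradiated array and 7.79 on the control array. The difference of -0.83 is a fold of 1.78, and 39 expressed genes (0.285%) were at least as far down. Both of its values lay above the floor, by 0.90 on the irradiated array and 1.73 on the control array. Orm genes are close relatives, and how far their probes cross-hybridise was not tested. The 3 genes are neighbours on chromosome 4 in the order Orm1, Orm3, Orm2, so the lower gene lies between both others. Of the expressed genes around them, Kif12 differed by -0.06, Col27a1 by 0.18, Akna by 0.19 and Whrn by 0.07.

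The promoters of Orm2 and Orm3 are printed because these neighbours differed in opposite directions. Their windows lie in GRCm38.p6 at chr4:63362199-63362448 on the plus strand and chr4:63355908-63356157 on the plus strand.
Orm2: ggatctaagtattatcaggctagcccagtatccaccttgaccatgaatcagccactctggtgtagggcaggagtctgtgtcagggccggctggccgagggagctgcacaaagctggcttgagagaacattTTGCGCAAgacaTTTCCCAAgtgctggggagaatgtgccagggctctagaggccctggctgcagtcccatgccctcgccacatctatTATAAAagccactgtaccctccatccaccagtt
Orm3: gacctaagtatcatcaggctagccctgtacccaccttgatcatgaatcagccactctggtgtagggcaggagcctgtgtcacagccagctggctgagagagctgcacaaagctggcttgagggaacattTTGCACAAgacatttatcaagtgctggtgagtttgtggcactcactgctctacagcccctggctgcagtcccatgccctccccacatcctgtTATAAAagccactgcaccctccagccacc
The windows were identical at 219 of 255 aligned positions (85.9%). Each held a TATA match and a C/EBP match at a like place, TTGCGCAA in Orm2 and TTGCACAA in Orm3, and Orm2 held a further C/EBP match, TTTCCCAA. Over the 8 members with a promoter in the table and Saa1, C/EBP matches were in 8 of 9 windows, where 36.8% of 32851 promoter windows held one. NF-kB matches were in 2 of 9, Lcn2 and Saa1, against 9.55% of all windows, STAT matches in 1 of 9, the Apcs window, against 7.02%, and TATA matches in 2 of 9 against 12.4%. The paralogous windows are not independent, and a match in letters is not a binding site.

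Haptoglobin and hemopexin clear what red cells release. Hp, whose product binds free haemoglobin, read 12.97 on the irradiated array and 12.87 on the control array, a difference of 0.10 that 25.7% of expressed genes reached. Hpx, whose product binds free heme, read 13.17 on the irradiated array and 13.10 on the control array, a difference of 0.06. Both were slightly higher, within the range of most genes. Apcs, the gene of the pentraxin serum amyloid P, read 8.90 on the irradiated array and 8.87 on the control array and differed by 0.03, so its RNA was close to level.

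The members were read in different parts of the arrays' signal range, and the spread of differences over all genes was narrower at high signal. Hp, Hpx, Orm1 and Saa4 had means of 12 or more, and their differences ran from -0.05 to 0.10. No expressed gene with a mean of 12 or more was 1.5-fold different, 0 of 356, and the central 95% of their differences ran from -0.25 to 0.15. A difference of 1.5-fold was thus not seen for any gene in the range where these 4 members were read. Among the 6 members with means below 12, the differences ran from -0.83 to 1.08 with a median of 0.38. Expressed genes with means from 8 to 10 had a central 95% from -0.35 to 0.33, and Saa2 and Saa3 lay above it while Orm2 and Apcs lay within it. For means below 8 it ran from -0.39 to 0.48, with Lcn2 above it, Orm3 below it and the probe set of Saa1 and Saa2 within it.

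**Figure D2:**
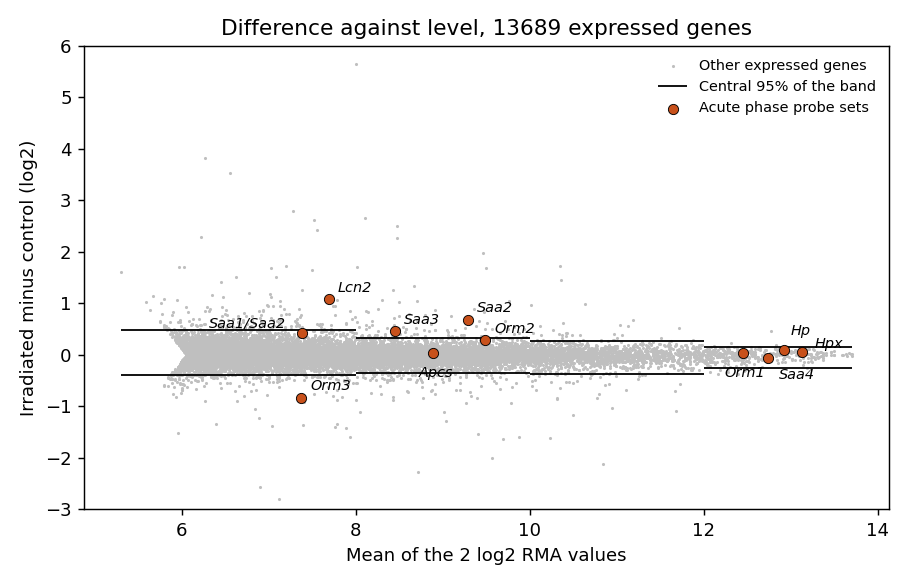
Irradiated minus control (vertical axis, log2) against the mean of the 2 log2 RMA values (horizontal axis) for the expressed genes in grey, with the 10 acute phase genes and the shared Saa1/Saa2 probe set in orange and black lines at the central 95% of differences in 4 ranges of mean signal. Lcn2, Saa2 and Saa3 sit above the lines of their range, Orm3 sits below, and Hp, Hpx, Orm1 and Saa4 sit in the narrow range at the right.

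Other acute phase genes induced in inflammation were set beside the members. Of 33 listed, 30 had a probe set of their own and 29 were expressed, with a median difference of 0.08, and 21 of the 29 were above 0, where 48.5% of all expressed genes were. Only Cd14, the lipopolysaccharide co-receptor gene, was past 1.5-fold, at 6.41 on the irradiated array and 5.76 on the control array, which is below the floor, and against the floor it was 1.28-fold higher. The fibrinogen genes Fga, Fgb and Fgg differed by 0.08, -0.00 and 0.02. The C-reactive protein gene Crp differed by -0.00, the antiprotease gene Serpina3n by 0.01, the hepcidin gene Hamp by -0.06 and the ceruloplasmin gene Cp by 0.10. The lipopolysaccharide-binding protein gene Lbp differed by 0.26, the inter-alpha-inhibitor genes Itih3 by 0.20 and Itih4 by 0.08, and the glycoprotein gene Lrg1 by 0.05. Of the metallothionein genes, which bind zinc and copper, Mt2 differed by 0.50 and Mt1 by 0.02. None of the 29 was 1.5-fold lower.

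None of the listed negative acute phase genes, most of whose products are plasma proteins that decline during inflammation, was 1.5-fold different. By that much 1.14% of all expressed genes were higher and 0.65% lower. All 19 of 21 listed genes that had their own probe set were expressed, with differences from -0.37 to 0.19 and a median of 0.01. The transthyretin gene Ttr read 13.64 on the irradiated array and 13.66 on the control array, and the fetuin gene Ahsg differed by 0.01. Most of the 19, Ttr and Ahsg included, had means of 12 or more, a range where no expressed gene was 1.5-fold different.

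Genes of the cytokine pathways upstream were mostly level as well. Of 35 expressed members 2 were at least 1.5-fold higher and 0 lower, with a median of 0.00. Among all expressed genes 1.14% were that much higher and 0.65% that much lower. Socs3, the STAT3-induced inhibitor of cytokine signalling, read 8.36 on the irradiated array and 7.52 on the control array, a difference of 0.84. Its other probe set, below the floor on both arrays, differed by 0.20. Il22ra1, a receptor subunit for interleukin-22, which acts on epithelial cells through STAT3, read 8.88 on the irradiated array and 8.12 on the control array, a difference of 0.76. The interleukin-6 receptor gene Il6ra differed by 0.16 and its partner Il6st, which encodes gp130, by -0.09, while Stat3 differed by 0.14. The interleukin-1 receptor gene Il1r1 differed by 0.21, and Nfkbia, an NF-kB-induced inhibitor of NF-kB, by -0.05. Of the cytokine genes themselves, Il6 was below the floor on both arrays, and the interleukin-1 genes Il1a and Il1b differed by 0.10 and -0.08. Tnf differed by -0.15, Lif by -0.23 and Osm by -0.29, the lowest of the list. Tnf, Lif and Osm were read close to the floor on both arrays.

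The 19 expressed transcription factors that act at acute phase genes had a median of -0.00. At least 1.5-fold higher were 2 of the 19, where 1.14% of all expressed genes were. They were the immediate early genes Egr1, at 9.61 on the irradiated array and 7.34 on the control array, and Fos, at 7.83 on the irradiated array and 6.33 on the control array. The C/EBP genes Cebpb and Cebpd, which are induced in the acute phase, differed by 0.12 and 0.09. Of the receptors and handling genes of the proteins, 0 of 21 expressed were 1.5-fold different and the median was 0.02. This count is close to the share over all expressed genes, 1.14% higher and 0.65% lower. The haptoglobin-haemoglobin receptor gene Cd163 differed by -0.29, the hemopexin-heme receptor gene Lrp1 by -0.08, and Hmox1, whose enzyme breaks down heme, by 0.21. Slc22a17, which encodes a proposed lipocalin 2 receptor, differed by -0.07, and Fpr2, a serum amyloid A receptor gene, by 0.03.

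**Figure D3:**
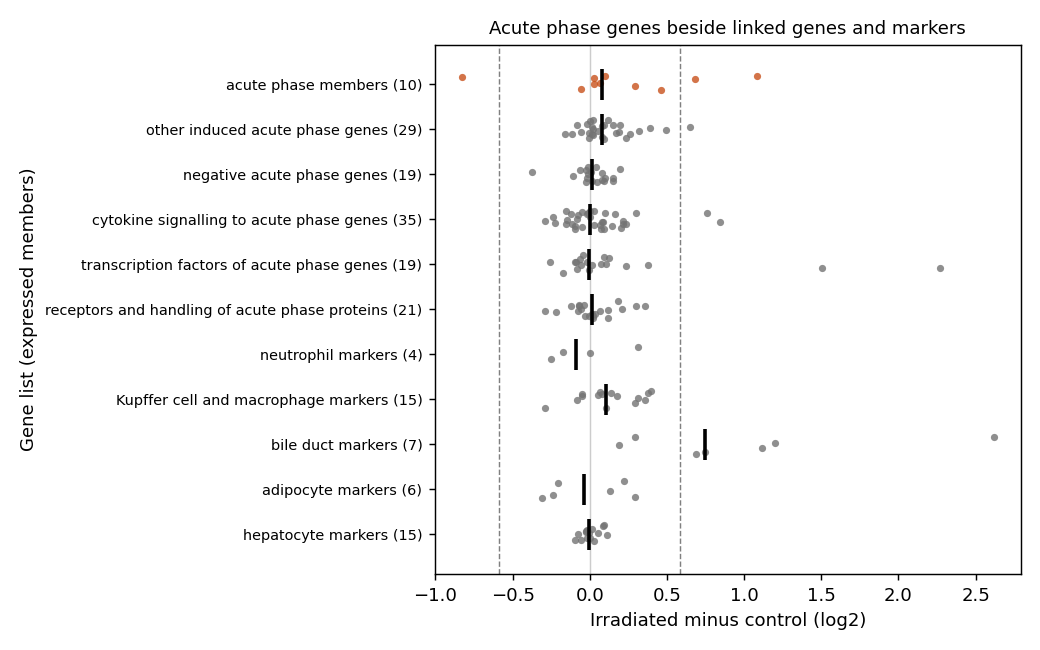
Irradiated minus control (horizontal axis, log2) for each expressed gene of the acute phase members (orange) and 10 other lists (grey), with the number of expressed members in brackets, a black bar at each median and dashed lines at 1.5-fold. The members spread from -0.83 to 1.08 around a median of 0.08, and the bile duct markers lie to the right with a median of 0.75.

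Lcn2 and Saa3 are also made by cells other than hepatocytes, so markers of those cells are given here. Neutrophils store lipocalin 2 in granules. Of 16 neutrophil markers 12 were below the floor on both arrays, among them the granule genes S100a8, S100a9, Ngp, Ltf and Mpo. Their summed linear signal was 818 on the irradiated array and 836 on the control array, a sum that includes the 12 probe sets below the floor. The 4 expressed markers had a median of -0.09 and ran from -0.25 for Prtn3, a granule protease gene, to 0.31 for Csf3r, the granulocyte colony-stimulating factor receptor gene. Il1r2, below the floor on both arrays, differed by 0.35.

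Of 16 Kupffer cell and macrophage markers 15 were expressed, with a median of 0.11. Above 0 were 11 of the 15, where 48.5% of all expressed genes were. Past 1.5-fold were 0 of the 15, where 1.14% of expressed genes were that much higher and 0.65% lower. The summed linear signal of the 16 was 10404 on the irradiated array and 8874 on the control array, a ratio of 1.17. Cd68, a macrophage lysosome gene, differed by 0.36 and Adgre1, which encodes F4/80, by -0.05. Of 8 adipocyte markers with a probe set 6 were expressed, with a median of -0.04, and Adipoq was below the floor on both arrays.

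Bile duct markers were read too, since epithelial cells also make Lcn2, and this list was chosen with earlier results of these data known. Of 12 listed, 10 had their own probe set and 7 were expressed. All 7 were above 0, where 48.5% of all expressed genes were, and 5 were at least 1.5-fold higher, where 1.14% were. Those 5 were Muc1 (2.62), Krt19 (1.20), Anxa13 (1.12), Epcam (0.75) and Prom1 (0.69). On the control array these 5 read from 6.18 (Krt19) to 6.47 (Anxa13), close to the floor of 6.06. On the irradiated array they read from 6.93 (Prom1) to 8.83 (Muc1). The other 2 expressed were the duct keratin gene Krt7 (0.29) and the duct transcription factor gene Sox9 (0.19). Krt7 and Sox9 lay within the range given above for the lowest mean signals, -0.39 to 0.48, and the 5 lay above it. The summed linear signal of the 10 was 1533 on the irradiated array and 785 on the control array, a ratio of 1.95. Without Muc1, an alternative chosen after seeing the data, it was 1078 on the irradiated array and 711 on the control array, a ratio of 1.52. The part of duct cells, macrophages, neutrophils or adipocytes in the Lcn2, Saa2 and Saa3 differences was not tested.

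The differences were recomputed under 9 other settings, and the plot of these values shows that Lcn2 and Saa2 stayed past 1.5-fold higher and Orm3 past 1.5-fold lower in each. Adding 32 on the linear scale, which shrinks differences at low signal, gave Lcn2 its lowest value, 0.93, and Orm3 its smallest difference, -0.69. The floor and probe set settings left every difference as deposited, since each member passed the floors and had a single probe set. Only the scalings and the offset could change the values. All of these values come from the same 2 arrays.

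**Figure D4:**
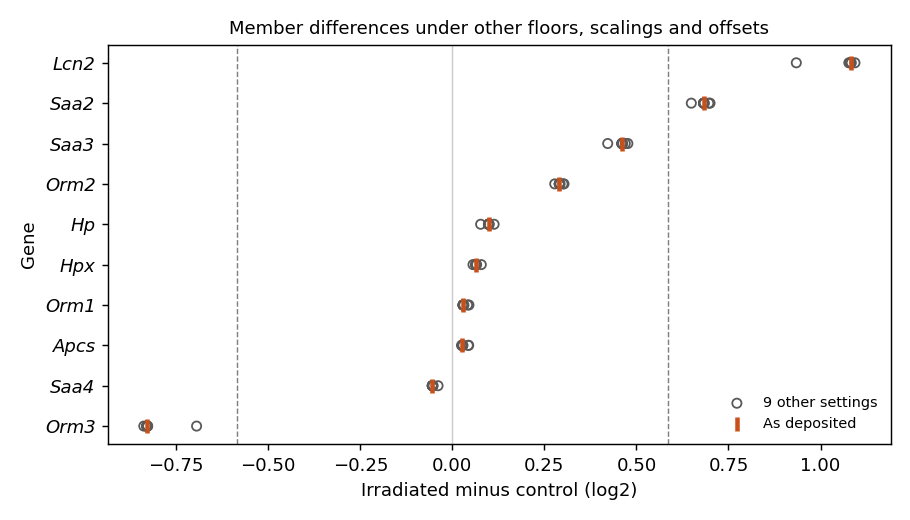
Irradiated minus control (horizontal axis, log2) of the 10 acute phase genes as deposited (orange bars) and under 9 other settings of the floor, the scaling, the probe set and an offset (open circles), with dashed lines at 1.5-fold. Lcn2 stays between 0.93 and 1.09 and Orm3 between -0.84 and -0.69, and no gene crosses 0 or 1.5-fold.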

How the data were processed

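Liver RNA of an irradiated and a control sample was hybridised to 1 Affymetrix array each, from 300 ng of total RNA, per the labels' protocols. The deposited log2 values were made by the authors with RMA, run in Affymetrix Expression Console 1.3.1 per the submitters' processing notes; the log base is inferred from the range of the values, 1.47 to 13.9 on the irradiated array and 1.46 to 13.9 on the control array. RMA brings arrays to a common distribution, so a change in total RNA per cell cannot be seen. Gene names came from GEO's platform annotation, which can be old, through the 23521 of 41345 probe sets with exactly 1 symbol; per symbol the highest mean was kept.

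Differences, medians and counts at 1.5-fold were computed with Python 3.11.15, numpy 2.4.6 and pandas 2.3.3, after testing on simulated data. No test was possible with 1 array per group, and the number of arrays limits the precision. The members and the 10 other lists were chosen with earlier results of these data known. Named genes were the members, up to 6 list genes past 1.5-fold per list, and genes fixed by name; Trf, one of these, had no probe set of its own. Prtn3, Csf3r, Il1r2, Krt7, Sox9, Il6, Il1a and Il1b were named after their values were seen. The same holds for Tnf, Lif, Osm, Fgl1, Steap4, Cfb, Vsig4 and C1qb. Neighbouring genes were taken by position in the RefSeq table and the motifs were set after the differences were seen. Promoters of 9 of the 11 genes, Saa1 included, were in the RefSeq table (GRCm38.p6), and all 10 members' identifiers matched it; Hp and Orm1 promoters are not shown. Alignments used Biopython 1.88, counting gaps as positions. Alternatives changed the floor, scaling, probe set rule, offset and fold.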

Additional observations from a re-analysis of the deposited data

How the results depend on the processing

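At 2-fold in place of 1.5-fold, 1 member was higher and 0 were lower, which follows from the stricter threshold. At a log2 difference of 0.32, 3 were higher and 1 was lower, while the share of all expressed genes counted grew to 4.65% higher and 3.75% lower. Under each of the other 9 settings run for the counts (no floor, a floor at the 75th percentile, values below the floor set to it, centring, quantile normalization, a loess trend with span 0.3 removed, the mean over probe sets, the first of several symbols, and 32 added on the linear scale) the counts were 2 and 1, as in the report, and each of the 10 members kept its sign. The floor and probe set rules changed no member's difference, since each passed the floors and had 1 probe set of its own. The median over members ran from 0.07 under quantile normalization to 0.18 when the mean replaced it. All settings reuse the same 2 arrays and measure no spread between animals. No paired analysis was possible because there was only 1 array in either group, and leaving out an array leaves no comparison. Background signal and detection calls were not used here, so how far the lower signals of Lcn2 and Orm3 stand above background is not known.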
